A study of Homo sapiens with 12 samples.

Results

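The G1 cyclins and their kinases are the cyclin genes CCND1, CCND2, CCND3, CCNE1 and CCNE2 and the cyclin-dependent kinase genes CDK2, CDK4 and CDK6, 8 genes taken by symbol from 27146 that the authors list in at least 1 of 3 comparisons. MDA-MB-231 cells, a human breast cancer line that the labels call triple-negative, received SAHA, compound 1 or a6 at 2.5 µM, or DMSO (Ctrl), for 48 h before RNA was sequenced. There were 4 groups of 3 libraries each, and 12 libraries in total. SAHA, or vorinostat, inhibits histone deacetylases (HDACs). By the labels SAHA and compound 1 have a single target, and a6 is aimed at HDACs together with G-quadruplexes (G4s), folds of guanine-rich nucleic acid. All groups share the same line, medium and treatment time. The study's comparisons ask whether the dual compound acts on expression as the single-target compounds do.

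Cells enter a division cycle through G1. D-type cyclins, whose transcription follows growth factor signals, bind CDK4 or CDK6, and the active kinases phosphorylate the retinoblastoma protein RB. RB then releases E2F factors, which transcribe CCNE1 and CCNE2; cyclin E with CDK2 completes the phosphorylation of RB and starts DNA replication. Proteins such as p21, from CDKN1A, restrain these kinases, and HDAC inhibitors are known for raising CDKN1A and arresting cultured tumour cells.

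Of the 8 genes, 1 passed the threshold, with 1 compound: CCND2, the cyclin D2 gene, rose with SAHA and was close to 0 in Ctrl. CCND2 is not listed with a6, so its change there is unknown, and SAHA and compound 1 are not shown to differ in it. The other 7, which include the abundant CCND1, CCND3, CDK4 and CDK2, did not pass the threshold with SAHA, compound 1 or a6. A gene was called where the Wald test that the authors ran in DESeq2, adjusted over a whole table, gave an adjusted p under 0.05. With SAHA 1 of 8 members was called, where 7.55% of all genes in that table were (4.53% higher and 3.02% lower). That member was higher, but a gene at its Ctrl level could be listed in that table only if higher with SAHA. Its direction is thus set by the listing. With a6 0 of the 7 listed members were called, against 0.583% of all genes. With compound 1 0 of 8 members were called, against 0% of all genes. At an unadjusted p under 0.05, 2 of 8 members passed with SAHA, 0 of 8 with compound 1 and 1 of 7 with a6, against 18.4%, 0.199% and 7.41% of all genes. The tables give means over libraries and no value per library, so no member can be shown sample by sample, and the standard error of the log2 fold change stands in for the spread. The titles call the libraries biological replicates and mention no separate cultures, so this spread, and the p-values that rest on it, may be partly technical. In bulk RNA fewer cells of a kind and less RNA per cell cannot be told apart.

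**Figure D1:**
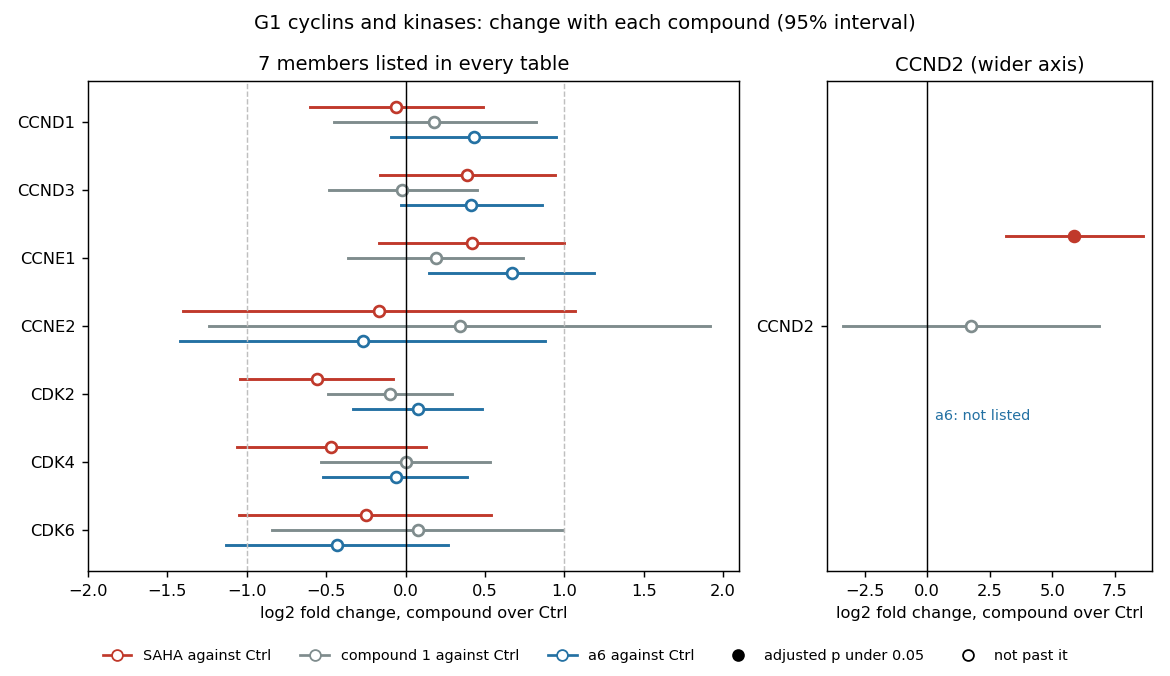
Log2 fold change of each member with SAHA, compound 1 and a6 over Ctrl (points) with 95% intervals (lines), from the authors' tables; filled points passed an adjusted p under 0.05, and dashed lines mark a 2-fold change. CCND2 with SAHA, at 5.88, is the only filled point, and the other 7 genes lie between -0.56 and 0.67.

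Promoters are shown because a6 is aimed at G4s. RefSeq promoters on GRCh38.p14, from 250 bases before to 50 bases after a start, were matched for 4 of the 8 members: CCND3, CCNE1, CDK4 and CDK6, with 7 starts in all. The pattern searched was 4 runs of at least 3 G with 1 to 7 bases between them, on both strands. It occurs in 25.0% of 35116 promoters. The CCNE1 promoter has 3 matches. They lie 206 to 184, 157 to 137 and 133 to 116 bases before the start, the first of them on the other strand. The CDK4 promoter has 0. Capitals mark the pattern, so a match on the other strand is printed as runs of C.
CCNE1 promoter, chr19:29811741-29812040, plus strand: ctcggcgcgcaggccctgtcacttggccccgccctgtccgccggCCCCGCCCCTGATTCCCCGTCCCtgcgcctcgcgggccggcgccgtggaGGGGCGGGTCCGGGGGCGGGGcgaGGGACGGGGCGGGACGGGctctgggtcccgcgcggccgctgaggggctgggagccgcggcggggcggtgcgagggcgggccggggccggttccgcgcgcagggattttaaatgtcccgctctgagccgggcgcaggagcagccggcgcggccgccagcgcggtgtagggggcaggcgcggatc
CDK4 promoter, chr12:57752261-57752560, minus strand: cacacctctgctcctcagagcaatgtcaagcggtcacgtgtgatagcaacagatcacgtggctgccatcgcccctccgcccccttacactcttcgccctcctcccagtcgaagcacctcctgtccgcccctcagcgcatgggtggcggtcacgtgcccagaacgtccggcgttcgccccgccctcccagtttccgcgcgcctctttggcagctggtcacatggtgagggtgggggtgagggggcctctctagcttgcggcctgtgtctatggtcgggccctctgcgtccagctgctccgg
CCND3 promoter, chr6:41941759-41942058, minus strand: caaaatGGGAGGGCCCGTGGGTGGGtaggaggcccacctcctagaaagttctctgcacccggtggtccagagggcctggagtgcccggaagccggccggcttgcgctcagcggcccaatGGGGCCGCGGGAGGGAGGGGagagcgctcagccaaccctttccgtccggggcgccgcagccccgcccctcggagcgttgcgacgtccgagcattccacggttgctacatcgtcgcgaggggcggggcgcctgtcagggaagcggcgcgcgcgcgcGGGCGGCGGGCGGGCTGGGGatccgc

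At the CCND3 start whose promoter spans chr6:41941759-41942058 the pattern also occurs 3 times, and at the other 2 starts 1 time each. Of the 2 CDK6 starts, 1 has 2 matches and the other 0. Of the other motifs, the GC box GGGCGG, which overlaps the G4 pattern, occurs 7 times in the CCNE1 promoter and 3 times in that of CDK4, and in 45.0% of all promoters. The E2F-type words TTTCGCGC, TTTGGCGC, TTTCCCGC and TTTGCCGC (3.31% of promoters), TGACGTCA (1.85%) and TGACTCA or TGAGTCA (4.95%) have 0 matches in the 7 windows. A match describes letters in a window and not a site that is used.

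CCND2, at chromosome 12, 4273772 to 4305350, on the plus strand of GRCh38, encodes a D-type cyclin that is often silent in breast cancer cells. Its mean normalized count was 22.2 with SAHA and 0.376 in Ctrl, both computed from the mean count and fold change of the authors' deposited table. Over 3 libraries that is a sum of 66.5 with SAHA and 1.13 in Ctrl. The authors' deposited table gave CCND2 a log2 fold change of 5.88 (SE 1.40), at an adjusted p of 0.00113 by DESeq2. The 95% interval of the fold runs from 8.84 to 393. That standard error exceeds those of 99.5% of genes with a mean count of 4/5 to 5/4 of that of CCND2. With about 1 count over all Ctrl libraries, the size depends on how the authors' fit treats counts near 0. The lowest mean count in the SAHA table was 2.44, and a gene with the Ctrl level of CCND2 needed a mean of 4.50 with SAHA to be listed at all. CCND2 therefore entered that table through the SAHA libraries alone and had to be higher there, so its direction is set by that minimum. Among genes of similar mean count 8.00% were called higher with SAHA.

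With compound 1 CCND2 had a mean normalized count of 1.23, against 0.365 in Ctrl, and a log2 fold change of 1.76 (SE 2.61) in the authors' deposited table. The interval of the fold, 0.0978 to 117, holds changes of either direction. CCND2 is not in the a6 table, whose lowest mean count was 9.31. A gene with its Ctrl level needed 18.2 with a6 to reach that mean. Whether a low mean or another filter left CCND2 out is not stated, so its change with a6 is unknown. SAHA minus compound 1 was 4.12 for CCND2, with a 95% interval of -1.67 to 9.92 and an adjusted p of 0.961 (two-sided z test), so the compounds are not shown to differ in CCND2.

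The authors also listed CCND2 among genes raised by SAHA that carry G4s, with 4 G4s, where the median of that list was 2.00 and its range 1 to 58. CCND2 is also the only member in any of the authors' lists of changed genes, so the G4-related lists say nothing of the G4s of the other 7. What these lists hold is not fully clear: the one for genes lowered by a6 has 326 genes, and the list of genes lowered by a6 has 248. CCND2-AS1, an antisense gene that shares 126 exon bases with CCND2 in GENCODE 29, was at a log2 fold change of 2.49 (SE 1.45) with SAHA in the authors' deposited table, with adjusted p = 0.373 by DESeq2. AC008012.1, which overlaps CCND2 on the same strand over 989 exon bases, is not listed in any of the 3 tables. The sources used here do not say whether counting used strand, so reads of overlapping genes cannot be told apart. GENCODE 29 also holds pseudogenes named after CCND2, CCND3 and CDK4, and how reads shared with such copies were counted is not stated, so these values are less certain. Some markers of other cell types were called higher with SAHA, where 4.53% of all genes were. Of 8 haematopoietic markers 1 was listed, CD14, and rose, with a level of 99.3 with SAHA and 28.2 in Ctrl. Of 5 endothelial markers 3 were listed and 2 rose, with a summed level of 154 with SAHA and 46.9 in Ctrl. Of 7 fibroblast markers 4 were listed and 1 rose, with a summed level of 862 with SAHA and 625 in Ctrl. Among these called genes, VWF (endothelial) was at 1.41 in Ctrl and LUM (fibroblast) at 0.378. Both lie under the lowest mean count of 2.44, so their direction, like that of CCND2, is set by that minimum. Of 8 luminal epithelial markers 7 were listed, 4 of them above 0 and 0 called, with a summed level of 47108 with SAHA and 33214 in Ctrl. The defining markers PTPRC, CDH5 and PDGFRA were not listed with SAHA. The part of such genes in the CCND2 result was not tested.

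CCND1 and CCND3 supplied nearly all D-type cyclin transcripts in every group. CCND1, at chromosome 11, 69641087 to 69654474, on the plus strand, encodes cyclin D1, a common oncogene product in breast cancer. Its mean normalized count was 6396 with SAHA and 6645 in Ctrl, 7545 with compound 1 and 6650 in Ctrl, and 8757 with a6 and 6509 in Ctrl. The authors' deposited table gave log2 fold changes of -0.06 (SE 0.28) for SAHA, 0.18 (SE 0.32) for compound 1 and 0.43 (SE 0.27) for a6. All 3 intervals lie inside a 2-fold change, and the a6 interval of -0.09 to 0.95 reaches 1.93-fold. LTO1, a gene on the other strand that shares 497 exon bases with CCND1, or 10.3% of them, was at 0.09, 0.20 and 0.45 with the same compounds in the authors' deposited table. Its part in the CCND1 values was not tested.

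CCND3, at chromosome 6, 41934933 to 42050357, on the minus strand, encodes cyclin D3. Its mean normalized count was 6101 with SAHA and 4657 in Ctrl, 4596 with compound 1 and 4647 in Ctrl, and 6056 with a6 and 4551 in Ctrl. The log2 fold change was 0.39 (SE 0.28) with SAHA and 0.41 (SE 0.23) with a6 in the authors' deposited table. Both missed the threshold, at adjusted p of 0.517 and 0.742 (DESeq2), and compound 1 was at -0.02 (SE 0.24) in the authors' deposited table. CCND3 was thus at 1.31-fold of Ctrl with SAHA and 1.33-fold with a6. The log2 intervals, -0.16 to 0.94 with SAHA and -0.03 to 0.86 with a6, both include 0.

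Per kilobase of the principal transcript, CCND1 made up 33.6% of D-type cyclin transcripts with SAHA and 40.9% in Ctrl, and CCND3 66.3% with SAHA and 59.1% in Ctrl. CCND1 made up 44.3% with compound 1 and 40.9% in Ctrl, and 41.2% with a6 and 40.9% in Ctrl. CCND2 made up 0.0775% with SAHA and 0.00154% in Ctrl, so its rise left it far below its relatives: CCND1 was 434 times as abundant per kilobase with SAHA. Which of CCND1 and CCND3 was the more abundant rests on the length used. In Ctrl of the SAHA comparison the ratio of CCND1 to CCND3 was 0.691 over the principal transcripts, of 4.31 and 2.08 kb, and 1.71 over all merged exons, of 4.83 and 5.80 kb. These shares have no error of their own, since they come from means.

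**Figure D2:**
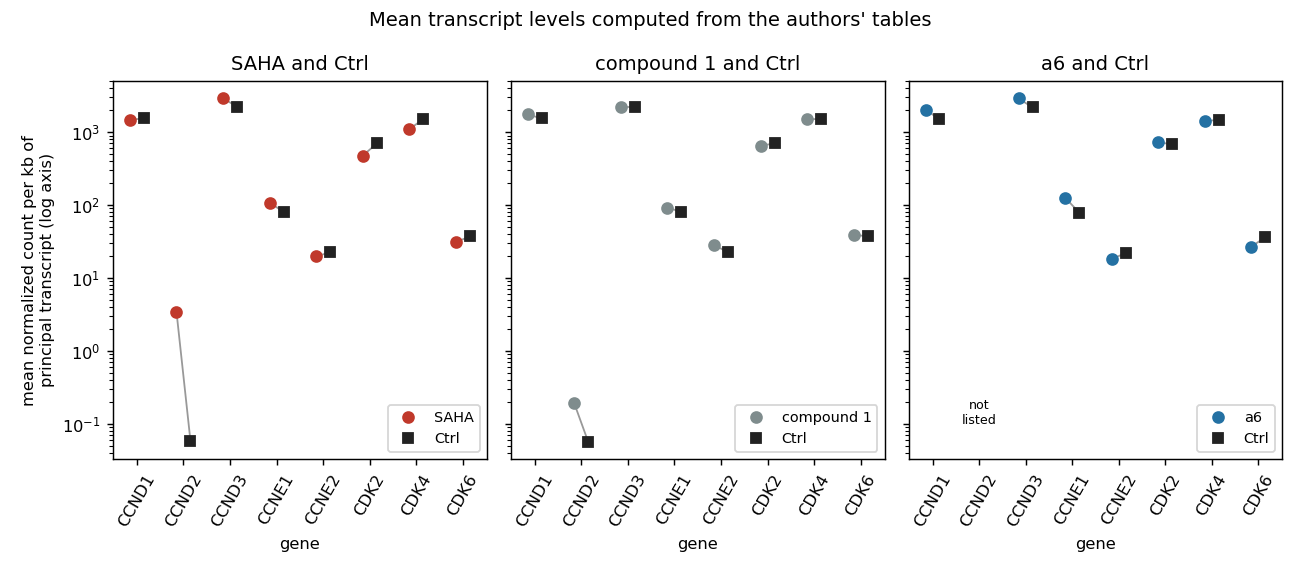
Mean normalized count per kilobase of the principal transcript (log axis) for each member, with each compound (coloured circles, left) and in Ctrl of the same comparison (black squares, right). The pairs of CCND2 lie farthest apart, at 3.42 with SAHA against 0.0581 in Ctrl and, not past the threshold, 0.190 with compound 1 against 0.0563 in Ctrl; CCND2 is not listed in the a6 table.

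CCNE1, at chromosome 19, 29811898 to 29824308, on the plus strand, encodes cyclin E1, the partner of CDK2 at entry into S phase. Its mean normalized count was 257 with a6 and 161 in Ctrl, 220 with SAHA and 165 in Ctrl, and 188 with compound 1 and 165 in Ctrl. CCNE1 had the smallest p of the members with a6 and missed the threshold: the authors' deposited table gave 0.67 (SE 0.27) on the log2 scale, at adjusted p = 0.402 by DESeq2. Its interval of 0.15 to 1.19 leaves out 0 and reaches 2.28-fold. With SAHA CCNE1 was at 0.42 (SE 0.30) and with compound 1 at 0.19 (SE 0.28) in the authors' deposited table.

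CCNE2, at chromosome 8, 94879770 to 94896678, on the minus strand, encodes cyclin E2. Its mean normalized count was 66.3 with SAHA and 74.4 in Ctrl, 94.8 with compound 1 and 75.0 in Ctrl, and 60.7 with a6 and 73.3 in Ctrl. CCNE2 was the least precise of the 7 members listed in every table. Its log2 fold changes were -0.17 (SE 0.63) for SAHA, 0.34 (SE 0.81) for compound 1 and -0.27 (SE 0.59) for a6 in the authors' deposited table. Those errors exceed those of 99.6%, 99.8% and 99.3% of genes with a mean count of 4/5 to 5/4 of that of CCNE2. With 3 libraries a group such errors correspond to a spread per library of 49.9% to 68.4% of the mean, against 22.6% to 25.5% for CCNE1. A 2-fold change of CCNE2 in either direction lies inside its interval with SAHA and compound 1. INTS8 on the other strand shares 1629 exon bases with CCNE2, or 37.0% of them, and had a mean count of 218, 248 and 217 with SAHA, compound 1 and a6 in the authors' deposited table. Its log2 fold changes there were 0.06, 0.41 and 0.11, and its part in the CCNE2 values was not tested. Per kilobase CCNE1 was 6.90 times as abundant as CCNE2 with a6 and 3.59 times in Ctrl, and 5.42 times with SAHA and 3.61 times in Ctrl. Such ratios come from means and have no error of their own, and neither gene passed the threshold.

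**Figure D3:**
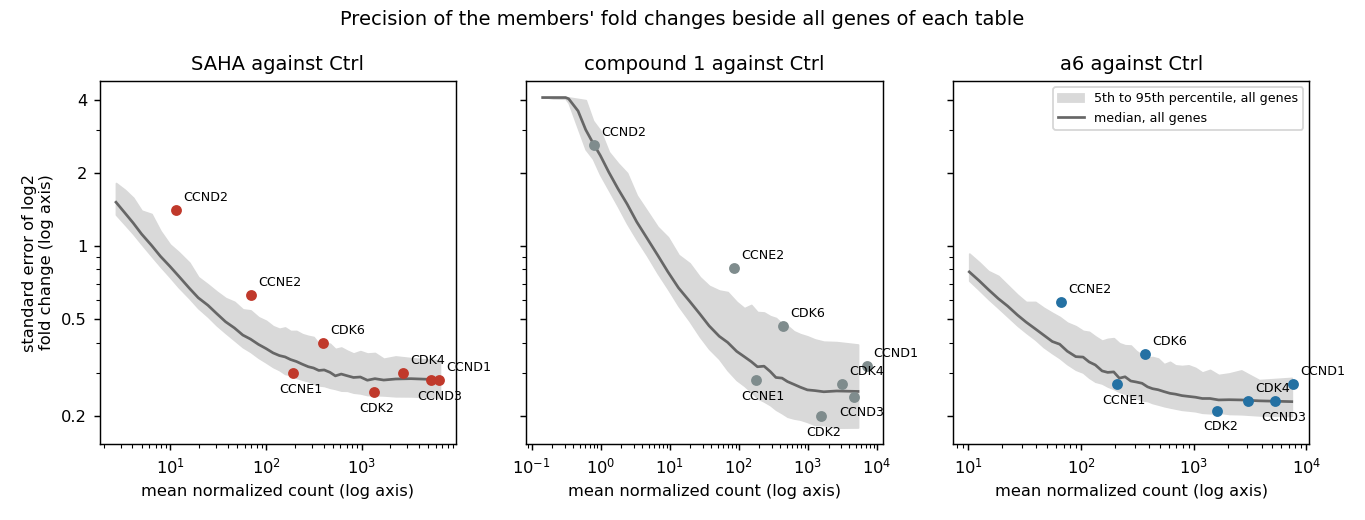
Standard error of the log2 fold change (log axis) against mean normalized count (log axis) for the members (points), with the median (line) and the 5th to 95th percentiles (band) of all genes in each table. CCNE2 lies above the band in each panel, with standard errors of 0.63, 0.81 and 0.59, and so does CCND2 with SAHA, at 1.40, while CDK2 lies in its lower part.

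CDK2, at chromosome 12, 55966769 to 55972784, on the plus strand, encodes the kinase that cyclin E activates. Its mean normalized count was 1093 with SAHA and 1610 in Ctrl, 1502 with compound 1 and 1607 in Ctrl, and 1661 with a6 and 1574 in Ctrl. With SAHA it stood at -0.56 (SE 0.25) on the log2 scale in the authors' deposited table, and the adjusted p of 0.172 missed the threshold (DESeq2). Its unadjusted p was 0.0235 (DESeq2), and its interval of -1.04 to -0.08 leaves out 0 and reaches 0.486-fold. With compound 1 it was at -0.10 (SE 0.20) and with a6 at 0.08 (SE 0.21) in the authors' deposited table. AC025162.1, an antisense gene over 565 exon bases of CDK2, or 14.5% of them, was at -0.59 (SE 0.28) with SAHA in the authors' deposited table. Its part in the CDK2 value was not tested.

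CDK4, at chromosome 12, 57747727 to 57756013, on the minus strand, and CDK6, at chromosome 7, 92604921 to 92836594, on the minus strand, encode the kinases that D-type cyclins activate. CDK4 had a mean normalized count of 2279 with SAHA and 3149 in Ctrl, 3142 with compound 1 and 3142 in Ctrl, and 2941 with a6 and 3076 in Ctrl. In the authors' deposited table its log2 fold change was -0.47 (SE 0.30) with SAHA, -0.00 (SE 0.27) with compound 1 and -0.06 (SE 0.23) with a6. The interval with a6, -0.52 to 0.39, lies inside a 2-fold change, while that with SAHA reaches -1.06. TSPAN31 on the other strand shares 1369 exon bases with CDK4, or 43.2% of them, and was at -0.25, -0.05 and -0.19 with SAHA, compound 1 and a6 in the authors' deposited table. Its part in the CDK4 values was not tested.

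CDK6 had a mean normalized count of 361 with SAHA and 431 in Ctrl, 456 with compound 1 and 432 in Ctrl, and 314 with a6 and 423 in Ctrl. Its log2 fold changes were -0.25 (SE 0.40), 0.08 (SE 0.47) and -0.43 (SE 0.36) with SAHA, compound 1 and a6 in the authors' deposited table. CDK6 was imprecise for its level: its errors exceed those of 95.7%, 93.8% and 94.7% of genes of similar mean count. CDK4 was 35.3 times as abundant as CDK6 per kilobase with SAHA and 40.9 times in Ctrl, and 52.5 times with a6 and 40.7 times in Ctrl. The long CDK6 transcript, of 11.6 kb against 2.08 kb for CDK4, bears on these ratios but not on their change with a compound. They too have no error of their own, and neither gene passed the threshold.

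In Ctrl of the SAHA comparison the order per kilobase of principal transcript was CCND3 at 2234, CCND1 at 1543, CDK4 at 1517, CDK2 at 701, CCNE1 at 80.8, CDK6 at 37.1, CCNE2 at 22.4 and CCND2 at 0.0581. On these lengths CCND1 and CDK4 lay within the spread of single libraries, of 23.5% and 25.9%. The gap between CDK6 and CCNE2 was larger than the spread of either, of 34.3% and 53.5% of its own mean. Levels are means of 3 libraries, so a spread per library is not the error of a gap. Over merged exons the gaps were larger, with CCND1 at 1376 and CDK4 at 994, and CDK6 at 35.2 and CCNE2 at 16.9. In the set as a whole, 12 of 23 listed intervals lay inside a 2-fold change, 2 with SAHA, 6 with compound 1 and 4 with a6. The other 11 extended past a 2-fold change in at least 1 direction.

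The compounds were compared over 22 differences between log2 fold changes, with p adjusted over all genes in both tables. None of the 22 passed an adjusted p of 0.05 (two-sided z test), and 1 passed at an unadjusted p under 0.05. For a6 minus SAHA 0 of 7 members were called, against 0.256% of 15255 genes (5.56% unadjusted). For a6 minus compound 1 it was 0 of 7, against 0.0328% (1.46% unadjusted), and for SAHA minus compound 1 0 of 8, against 1.06% (7.26% unadjusted). All of these comparisons share the Ctrl libraries, which makes the test conservative.

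The difference with the smallest p was CDK2, at 0.08 with a6 and -0.56 with SAHA in the authors' deposited table. It came to 0.64 (SE 0.32), with a 95% interval of 0.01 to 1.27 (two-sided z test, adjusted p = 0.880), and it is the 1 that passed unadjusted. For CCND1 a6 minus SAHA was 0.48 with an interval of -0.27 to 1.24, and for CDK4 0.40 with -0.35 to 1.15. For CCND3 it was 0.02 with -0.68 to 0.73, the smallest a6 minus SAHA difference of the 7. CCNE1 differed by 0.25 with an interval of -0.53 to 1.04 between a6 and SAHA, and by 0.48 with -0.28 to 1.24 between a6 and compound 1. For CDK6 a6 minus compound 1 was -0.51 with -1.66 to 0.64. CCNE2 was the least precise of the 7, at -0.61 (SE 1.00) for a6 minus compound 1 and -0.50 (SE 1.02) for SAHA minus compound 1.

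**Figure D4:**
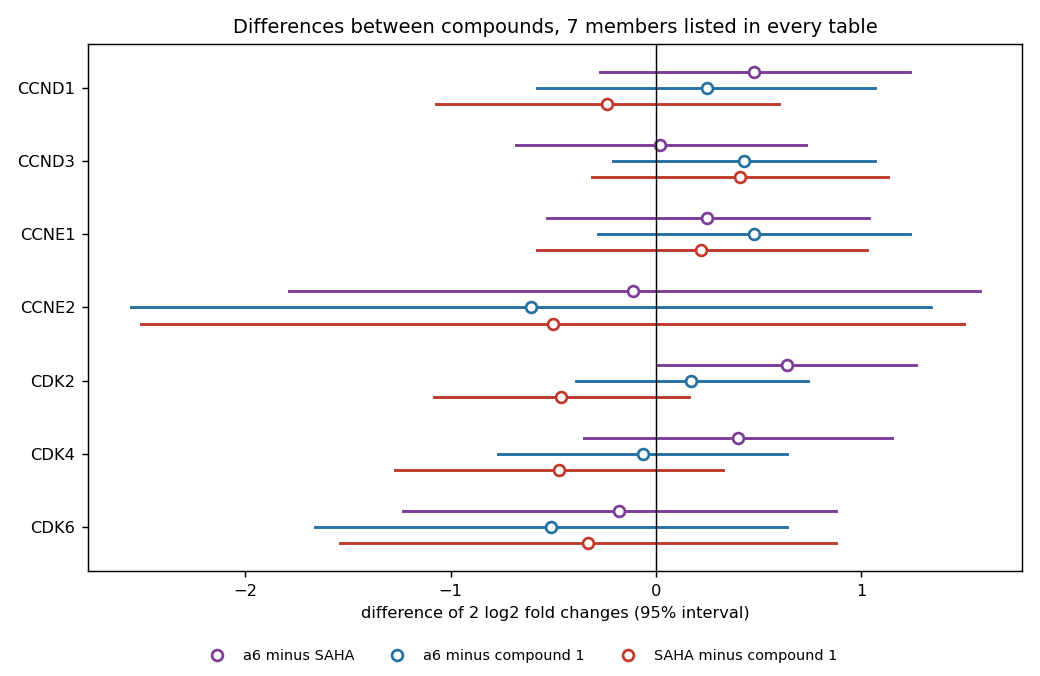
Difference between the log2 fold changes of 2 compounds (points) with 95% intervals (lines) for the 7 members listed in every table, without the shared error of Ctrl taken off. The interval of CDK2 for a6 minus SAHA, 0.01 to 1.27, is the only one that leaves out 0.

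Genes around the G1 kinases were counted in 7 lists. The lists were chosen with earlier results of these data known, so their counts are description and no independent support. With SAHA the members' median log2 fold change was -0.11, and -0.17 without CCND2, against -0.01 over all genes of the table. With compound 1 the members' median was 0.13, and 0.08 without CCND2, against 0.01 over all genes. With a6, where CCND2 is not listed, it was 0.08, against -0.03. Of the 6 listed CDK inhibitors, 1 rose with SAHA and 0 fell, where 4.53% of all genes were called higher and 3.02% lower. That gene was CDKN1A, with a mean normalized count of 4609 with SAHA and 1929 in Ctrl and a log2 fold change of 1.26 (SE 0.34), at adjusted p = 0.00666 by DESeq2 in the authors' deposited table. With a6 CDKN1A had 3143, against 1882 in Ctrl, with adjusted p = 0.436 by DESeq2 in the authors' deposited table. CDKN1B, the p27 gene, was at -0.33 (SE 0.28) with SAHA in the authors' deposited table. CDKN2A and CDKN2B, inhibitors of CDK4 and CDK6 whose locus is known to be deleted in MDA-MB-231, are listed in none of the 3 tables.

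Over all genes 4.53% were called higher and 3.02% lower with SAHA, so 1 or 2 calls in a list are not read as a result about that list. Of 13 RB and E2F genes, 0 rose and 1 fell with SAHA: TFDP1, the dimer partner of E2F factors, at -0.80 (SE 0.27) in the authors' deposited table. RB1 was at -0.39 (SE 0.44) and E2F1 at -0.48 (SE 0.28) in the authors' deposited table. Of 18 listed activators and turnover factors of the complexes, 1 rose with SAHA, the deubiquitinase USP2, known for stabilising cyclin D1, at 2.24 (SE 0.44) in the authors' deposited table. CDC25A, the phosphatase that activates CDK2, was at -0.64 (SE 0.36) in the authors' deposited table. Of 21 genes of upstream signals to D-type cyclins, 0 rose and 2 fell with SAHA, the AP-1 subunit gene FOSL1 at -0.90 (SE 0.28) and the kinase gene AKT1 at -0.85 (SE 0.29) in the authors' deposited table. Of 31 listed other cyclins and kinases, 1 rose with SAHA, CCNYL1 at 1.05 (SE 0.35) in the authors' deposited table, and 0 fell.

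With SAHA 3.02% of all genes were called lower. Of 24 G1/S transcripts under E2F, 8 fell and 0 rose, with a median of -0.79, and 1 of 24 was above 0. TYMS, thymidylate synthase, was the one with the smallest adjusted p, at -1.41 (SE 0.25) in the authors' deposited table, and CCNA2, the S phase cyclin, was at -1.05 (SE 0.31). CDC45, a part of the replicative helicase, was at -1.07 (SE 0.29) and RRM2, a ribonucleotide reductase subunit, at -0.96 (SE 0.28) in the authors' deposited table. Of 10 genes of mitotic cyclins and their kinase, 5 fell and 0 rose, with a median of -0.74. CCNB2 fell by 1.28 (SE 0.26) and CCNB1, with a mean normalized count of 1777 with SAHA and 3478 in Ctrl, by 0.97 (SE 0.26) on the log2 scale in the authors' deposited table, while CDK1 was at -0.57 (SE 0.28) and did not pass. CDC25B, a phosphatase that activates CDK1, was at -1.20 (SE 0.28) in the authors' deposited table and passed. No set test was run, so the members are not shown to differ from these lists. With compound 1 and a6, 0 genes of the 7 lists were called in either direction, and medians lay between -0.06 and 0.12 with compound 1 and between -0.14 and 0.01 with a6.

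**Figure D5:**
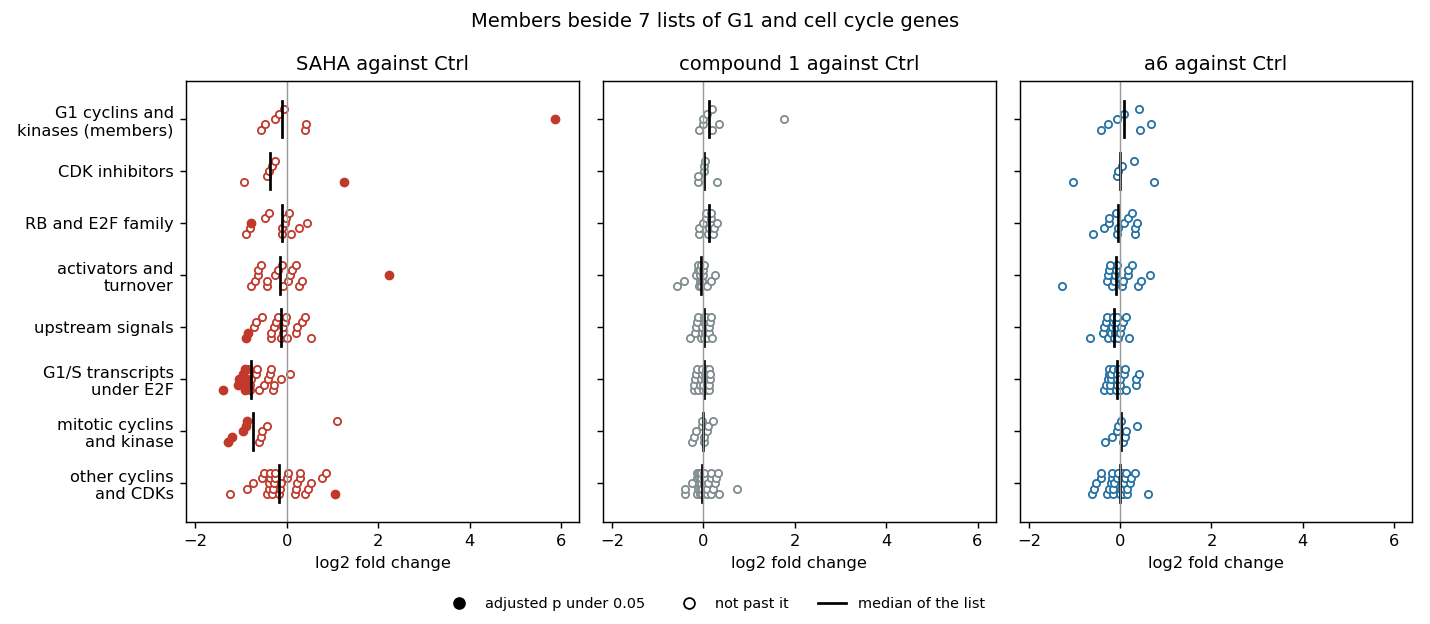
Log2 fold change over Ctrl of the members and of 7 lists of related genes with each compound (points; filled where the adjusted p was under 0.05), with the median of each list (black bar). With SAHA the bars of the G1/S and mitotic lists lie at -0.79 and -0.74 and that of the members at -0.11; with compound 1 and a6 no point is filled.

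The 7 listed MDA-MB-231 markers, among them VIM and CD44, had mean counts of 2424 to 20436 in the authors' deposited table. ESR1 and PGR were at mean counts of 0.489 and 0.317 in the authors' deposited table for compound 1 and are not listed in the other 2. ERBB2 was at 1715 to 2088 in the authors' deposited table, so it was transcribed. Mitochondrially encoded genes, a sign of RNA quality, had 0 of 13 members above 0 with compound 1, at a median of -0.23, against 10 with SAHA and 5 with a6; their part in the members' values was not tested. The depth of single libraries is unknown here.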

How the data were processed

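RNA from 12 libraries of MDA-MB-231 cells, 3 per group, was compared by the authors. Cutadapt, DESeq2 and GRCh38 (hg38) are named in the submitters' processing notes, while aligner, counter and versions are not stated in the sources used. Per the file headers, the deposited comparison tables hold for each gene its mean normalized count over both groups, which is treated as a signal, the log2 fold change with its standard error (SE), the Wald score, and p-values before and after adjustment. In the G4-related lists that the authors deposited, a count of G4s stands beside each gene. Checked on the values, the score is the fold change over its error, the adjustment is Benjamini-Hochberg over each table, and the deposited lists of changed genes hold an unadjusted p under 0.05 and at least 2-fold, with 0 mismatches. SAHA has 18534 genes in its table, compound 1 27126 and a6 15255.

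The authors' DESeq2 test at an adjusted p under 0.05 was used for each compound. Levels in treated cells and Ctrl were computed from the mean count and fold change for equal groups; 95% intervals are normal. The spread per library is the standard error, as a natural log, times the root of 3/2. Differences between compounds are differences of log2 fold changes whose squared errors are summed, by a z test (two-sided) adjusted over all shared genes. The test was also run on simulated data drawn with the same standard errors, so that run could not show whether those errors are right. It planted only changes larger than any seen for the members listed in every table, so it says nothing of smaller differences. Gene positions, overlaps and lengths come from GENCODE 29 on GRCh38, with the principal transcript by APPRIS. Scripts ran in Python 3.11.15 with pandas 2.3.3 and scipy 1.17.1. The members and lists were chosen with earlier results of these data known. Named genes are all members, up to 3 called genes per list and direction by adjusted p, and CDKN1A, CDKN1B, RB1, E2F1, CCNA2, CCNB1, CDK1 and CDC25A. Genes of like pattern were to be named for called members listed in every table with a mean count of at least 50; none met that. Alternatives were an adjusted p under 0.01, a 2-fold limit, adjustment over genes in all 3 tables or with a mean count of at least 10 or 50, centring on the median, the authors' rule for changed genes, and for differences an error correlation of 0.5 and adjustment over the 3 differences together.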

Additional observations from a re-analysis of the deposited data

How the results depend on the processing

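CCND2 with SAHA kept its call in the 5 alternatives that hold it, with an adjusted p of 2.54e-05 to 0.00113 (DESeq2; the lowest is the unadjusted p of the authors' rule). Since it was listed only through its SAHA level, these calls add no support for its direction. It is outside the genes in all 3 tables and those with a mean count of at least 50, so 0 members were higher with SAHA there. Of 156 values of single members against Ctrl under an alternative, 155 kept direction and side of the threshold, and CCND1 with SAHA turned to 0.007 on centring. Of 109 values of differences 108 did, and CCND3 for a6 minus SAHA turned to -0.01 on centring. Only centring alters a fold change, so direction could turn in no other alternative. A stricter threshold cannot add a call, so both counts are largely fixed in advance and say little of stability. With an error correlation of 0.5 CDK2 for a6 minus SAHA had an adjusted p of 0.101 (two-sided z test), and 0 of 22 differences passed.

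Over all genes SAHA raised 839 and lowered 560, and 517 and 303 at an adjusted p under 0.01. It raised 446 and lowered 521 with a mean count of at least 50, and it raised 1327 and lowered 609 by the authors' rule. For a6, 37 higher and 52 lower became 12 and 24 at an adjusted p under 0.01 and 150 and 248 by the authors' rule. For compound 1, 0 and 0 became 23 and 20 by that rule; 54 genes had an unadjusted p under 0.05 (DESeq2). No paired analysis was possible because the tables hold no value per library, and leaving out a replicate was not run for the same reason. Precision is limited by the standard errors: the intervals of CCNE2 reach 3.77-fold, with compound 1, those of CDK6 reach 0.457-fold, with a6, and that of CCND2 with compound 1 reaches 117-fold.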
